A study of Mus musculus with 17 samples.

Results

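The genes described here are 7 CXC chemokines of mouse cardiac fibroblasts (CFs): *Cxcl1*, *Cxcl2*, *Cxcl5*, *Cxcl12*, *Cxcl13*, *Cxcl14* and *Cxcl16*. They were taken by symbol from the 31053 genes of the count table, whatever their level, and all 7 had enough counts to be tested. The CFs came from C57BL/6 mice carrying a Collagen1a1-GFP reporter, 8 to 10 weeks old, in which myocardial infarction (MI) was induced by permanent ligation of the left anterior descending coronary artery. Cells that were GFP+, CD31- and CD45- were sorted from the digested ventricles 1 to 6 days post-infarction (dpi). The 17 bulk RNA libraries were 4 from 3 dpi, a single one from 5 dpi and 3 from every other day. The GFP reporter is driven by a collagen promoter, so entry of a GFP+ cell depended on its reporter. The paper also describes an enrichment of CFs with mEFSK4 antibody beads before the sort, and allows sorting by GFP, by mEFSK4 staining or by both. Every group is infarcted: uninfarcted hearts were not analysed here.

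CXC chemokines are small secreted proteins that guide leukocytes along a gradient. Members with a Glu-Leu-Arg motif before the first cysteine pair, such as CXCL1, CXCL2 and CXCL5, bind CXCR2 on neutrophils and draw them into injured tissue, and their genes are known targets of NF-kB downstream of interleukin-1, tumour necrosis factor and Toll-like receptors. CXCL12 is the ligand of CXCR4 and of the scavenging receptor ACKR3 and is made by stromal cells at rest, CXCL13 guides B cells through CXCR5, CXCL14 is a constitutively made chemokine of many epithelia and stromal tissues, and CXCL16 is made as a membrane protein whose shed form binds CXCR6.

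The attractant genes lie close together. *Cxcl5* (ENSMUSG00000029371, GRCm38 chr5:90759360-90761624), *Cxcl1* (ENSMUSG00000029380, chr5:90891241-90893115) and *Cxcl2* (ENSMUSG00000058427, chr5:90903871-90905938) are on the plus strand of 1 cluster that spans 146579 bases. *Cxcl13* (ENSMUSG00000023078, chr5:95956951-95961068, plus strand) is on the same chromosome outside that cluster. *Cxcl12* (ENSMUSG00000061353, chr6:117168535-117181367) is on the plus strand, and *Cxcl14* (ENSMUSG00000021508, chr13:56288643-56296551) and *Cxcl16* (ENSMUSG00000018920, chr11:70453983-70459984) are on the minus strand. An exon of *Cxcl16* overlaps *Zmynd15* on the other strand. The strand setting of the counting is not given in the sources used here, so reads of this pair cannot be told apart with certainty, and *Zmynd15* itself was listed at 5.32 to 17.4 CPM (counts scaled to a fixed library total).

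Promoter sequences from RefSeq (GRCm38.p6, 250 bases before to 50 after each gene's start) were available for 5 of the 7 genes, namely *Cxcl1*, *Cxcl2*, *Cxcl12*, *Cxcl13* and *Cxcl14*; *Cxcl5* and *Cxcl16* had no entry. The 120 bases before the start are shown for a pair of attractants and, for contrast, for *Cxcl12* and *Cxcl14*, whose levels followed courses that differed in part. Capitals mark the longest run of letters that the *Cxcl1* and *Cxcl2* windows share, which was looked for after the levels were known.
Cxcl1 (plus strand, chr5:90891125-90891244): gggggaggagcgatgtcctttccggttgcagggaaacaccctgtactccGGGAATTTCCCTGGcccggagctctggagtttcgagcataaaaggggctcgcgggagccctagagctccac
Cxcl2 (plus strand, chr5:90903779-90903898): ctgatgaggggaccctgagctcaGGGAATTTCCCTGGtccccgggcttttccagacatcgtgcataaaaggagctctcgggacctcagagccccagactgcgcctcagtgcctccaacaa
Cxcl12 (plus strand, chr6:117168415-117168534): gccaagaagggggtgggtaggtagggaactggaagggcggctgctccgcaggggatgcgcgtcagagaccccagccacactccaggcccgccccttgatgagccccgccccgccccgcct
Cxcl14 (minus strand, chr13:56296552-56296671): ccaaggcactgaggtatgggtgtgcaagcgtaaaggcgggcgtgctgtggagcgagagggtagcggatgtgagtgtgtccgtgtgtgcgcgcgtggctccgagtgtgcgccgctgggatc
The shared run, GGGAATTTCCCTGG, has 14 letters and lay 71 to 58 bases before the start of *Cxcl1* and 97 to 84 bases before that of *Cxcl2*, counted from the RefSeq start, which lies 4 and 28 bases inside the genes as placed above. On both strands of all 32851 promoters it was present in 2 (0.00609%), those of this pair. The run was taken from these windows, so both matches were fixed in advance and its rarity is a description only. The first 10 letters of the run, GGGAATTTCC, match the kappa B consensus bound by NF-kB. This pair included, 29 promoters (0.0883%) held these on either strand (reverse complement GGAAATTCCC). The windows of *Cxcl12*, *Cxcl13* and *Cxcl14* held neither. The looser pattern GGGNNNNNCC (reverse complement GGNNNNNCCC), which overlaps the full one, was present in 50.8% of all promoters, *Cxcl12* and *Cxcl13* among them. A match of letters is a description of the window and not a measured binding site.

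Total counts ranged from 8021815 to 22029938 per library, so that 3 counts equalled 0.136 to 0.374 CPM. A floor of this kind covers counting error only. Levels are CPM on library sizes adjusted by the trimmed mean of M values (TMM), and comparisons are log2 fold changes from edgeR's quasi-likelihood fit, with p-values adjusted (Benjamini-Hochberg) for the 14030 genes tested. The methods call the replicates biological, and the labels do not tie a library to a mouse, so p-values measure the spread between these libraries. The names of the 3 dpi libraries took another form than those of all other days, which carry a running number. The labels do not say why. Any difference in handling that went with the names cannot be told apart from the day in comparisons that involve 3 dpi. The 7 fibroblast markers (*Col1a1* and others) summed to between 12281 and 37950 CPM in every library, in accord with the label. Neutrophil markers summed to at most 9.15 CPM over 9 genes and lymphocyte markers to at most 1.46 CPM over 6 genes, and *Ngp* was at 0 in every library of 1, 2, 4 and 6 dpi. Macrophage markers (10 genes) summed to between 14.0 and 44.6 CPM at 1, 2, 4 and 6 dpi, but to 73.4, 62.6, 261 and 273 CPM in replicates 1 to 4 of 3 dpi and to 91.8 CPM at 5 dpi. *Xist* exceeded the Y-linked genes in replicate 1 of 1 dpi and in all libraries of 4 and 6 dpi. In the rest the Y-linked genes exceeded *Xist*, here called the Y-linked pattern. Sex-linked pattern and day therefore cannot be told apart between 3 and 4 dpi. Between 1 and 6 dpi only replicate 1 of 1 dpi separates them, and this holds for every gene compared between these days. Replicate 2 of 3 dpi stood apart from its group in several genes, and where leaving it out moved a member across the threshold, this is given.

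**Figure D1:**
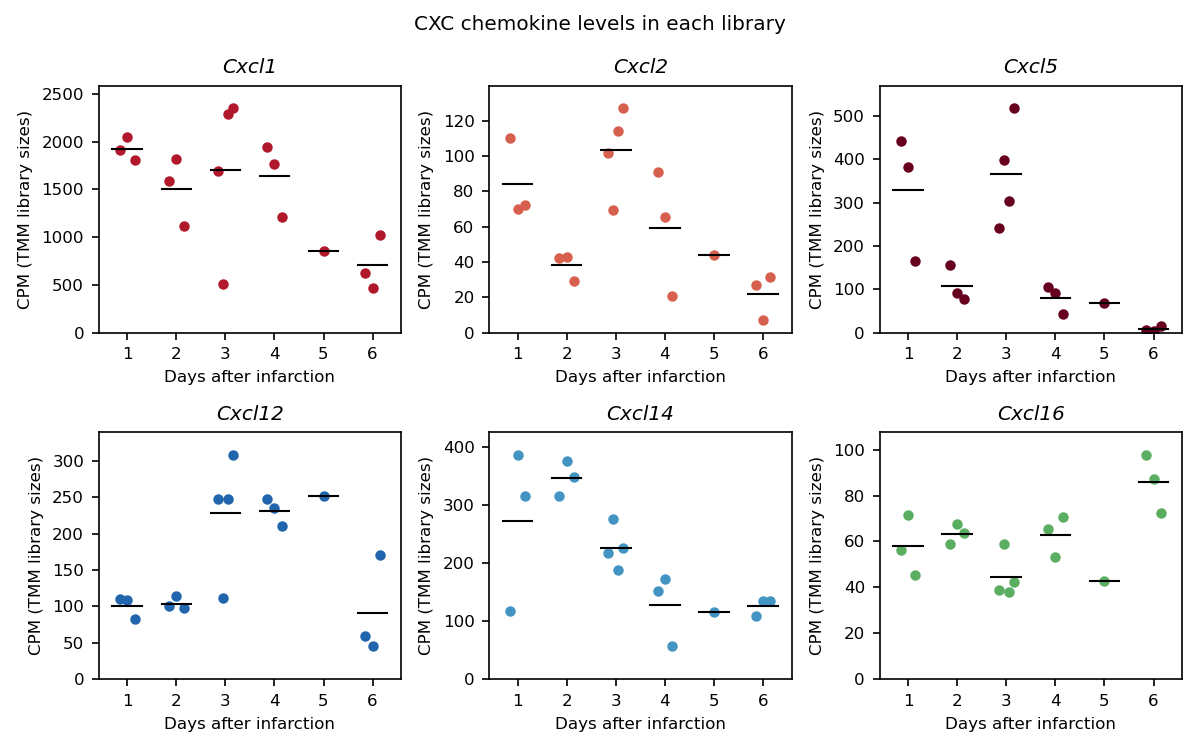
Levels of 6 CXC chemokines, 1 panel a gene, with days after infarction on the x axis and CPM on TMM library sizes on the y axis, which starts at 0. Each point is 1 library and each line the mean of the day. *Cxcl5* has its low points at 6 dpi, between 3.32 and 15.3 CPM, *Cxcl12* is high from 3 to 5 dpi apart from replicate 2 of 3 dpi at 112 CPM, and *Cxcl16* is highest at 6 dpi.

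*Cxcl5*, which encodes a neutrophil attractant well known from epithelial and stromal cells, had the largest change of the 7 genes. Its level was 441, 382 and 164 CPM in the libraries of 1 dpi, 155, 91.6 and 78.4 CPM at 2 dpi, and 242, 399, 303 and 517 CPM at 3 dpi. It was 106, 91.8 and 43.7 CPM at 4 dpi, 67.9 CPM at 5 dpi, and 6.2, 3.32 and 15.3 CPM at 6 dpi. The gene thus had a high level at 1 dpi, a trough at 2 dpi, a second high level at 3 dpi and a steep descent to 6 dpi, where every library lay below every library of any other day.

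From 1 to 6 dpi *Cxcl5* fell by 5.31 on the log2 scale (SE 0.56, edgeR adjusted p = 8.2e-06), a 39.7-fold difference. It was called in the same comparison whichever library was left out, with differences from -6.10 without replicate 3 of 6 dpi to -4.94 without replicate 2 of that day. Only replicate 1 of 1 dpi, at 441 CPM, had the sex-linked pattern of the 6 dpi libraries, and the part of that pattern in the fall was not tested. The 6 dpi values rested on 96, 39 and 199 counts, well above the floor.

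The dip at 2 dpi and the rise at 3 dpi were less firm. *Cxcl5* differed by -1.60 (SE 0.47) between 2 and 1 dpi on the log2 scale, and although the ranges did not overlap the edgeR adjusted p was 0.32. From 2 to 3 dpi it rose by 1.75 (SE 0.46, edgeR adjusted p = 0.043). All 4 libraries of 3 dpi, from 242 CPM upwards, exceeded all 3 of 2 dpi, from 155 CPM downwards. This call was lost on leaving out any 1 of 9 libraries (replicate 2 of 1 dpi, each of the 3 of 2 dpi, replicates 1 and 4 of 3 dpi, replicates 1 and 2 of 4 dpi, or replicate 1 of 6 dpi), with adjusted p from 0.05 to 0.19, and in a fit with a block for replicate numbers, where the fold change was 1.59 and the adjusted p 0.11.

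The rise in *Cxcl5* coincided with a rise in macrophage markers. Of 9 tested macrophage markers, 4 were higher at 3 than at 2 dpi: *C1qa*, *C1qb*, *Lyz2* and *Cd14*, where 2.94% of all genes tested were called in either direction. Without replicates 3 and 4 of 3 dpi, which held the highest macrophage sums, *Cxcl5* differed by 1.57 with an edgeR adjusted p of 0.11, an alternative chosen after the data were seen. In replicates 1 to 4 of 3 dpi the macrophage sums were 73.4, 62.6, 261 and 273 CPM, and *Cxcl5* was at 242, 399, 303 and 517 CPM. The part of macrophage RNA in the level at 3 dpi was not tested.

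**Figure D2:**
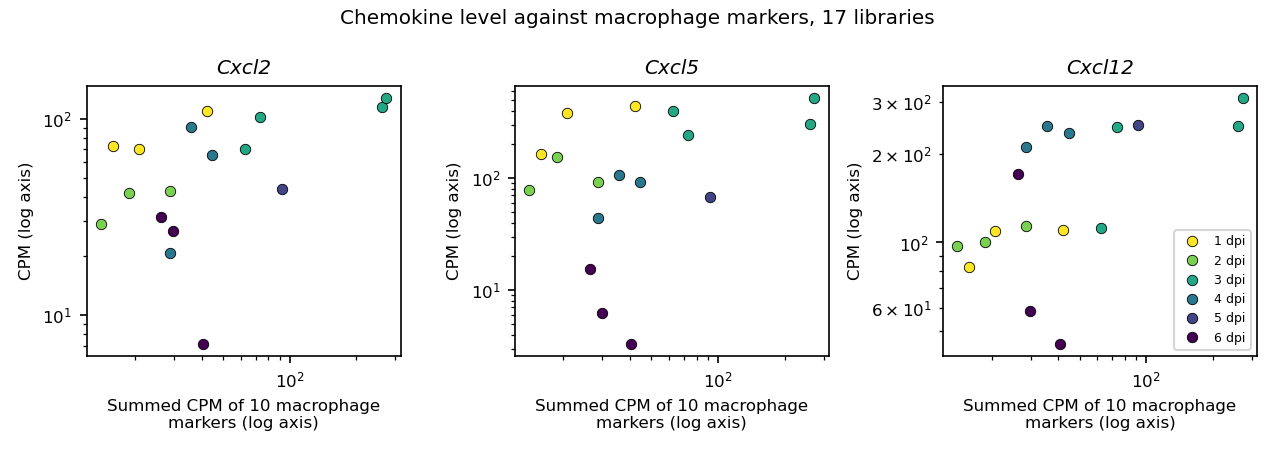
Level of *Cxcl2*, *Cxcl5* and *Cxcl12* in CPM (y axis, log scale) against the summed CPM of 10 macrophage markers (x axis, log scale), with 1 point for each of the 17 libraries coloured by day. The 2 libraries of 3 dpi at 261 and 273 CPM of markers stand to the right. *Cxcl5* lies between 242 and 517 CPM at 3 dpi, and between 164 and 441 CPM at 1 dpi, where marker sums are 15.8 to 42.2 CPM.

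From 3 to 4 dpi *Cxcl5* fell by 2.18 (SE 0.47, edgeR adjusted p = 0.015), and from 4 to 6 dpi it fell by 3.28 (SE 0.51, edgeR adjusted p = 0.008). The groups did not overlap in either comparison. The call between 3 and 4 dpi was lost without replicate 2 or 3 of 4 dpi (adjusted p of 0.065 and 0.061) and without the 2 macrophage-rich libraries (-2.02, adjusted p of 0.053). The call between 4 and 6 dpi was lost without replicate 1 or 2 of either day, with adjusted p between 0.061 and 0.068 and fold changes between -3.17 and -2.91, while without replicate 3 of 6 dpi the difference was -4.07 (adjusted p of 0.0013). The sums of 7 cardiomyocyte markers were 9.04 to 12.6 CPM at 3 dpi, 46.4 to 75.0 CPM at 4 dpi and 82.3 to 186 CPM at 6 dpi. Of the 6 tested, 4 were higher at 4 than at 3 dpi, where 2.71% of all genes tested were called in either direction. None of these markers passed in edgeR between 6 and 4 dpi. Their part in these comparisons was not tested.

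*Cxcl2*, which encodes a further CXCR2 ligand and is a known early target of NF-kB, followed *Cxcl5* in outline. It was measured at 110, 69.8 and 72.2 CPM at 1 dpi, at 42.1, 42.8 and 29.2 CPM at 2 dpi, and at 102, 69.7, 114 and 127 CPM at 3 dpi. The later levels were 90.9, 65.6 and 20.8 CPM at 4 dpi, 43.9 CPM at 5 dpi, and 26.7, 7.16 and 31.5 CPM at 6 dpi. Its 2 dpi libraries lay below those of both neighbouring days, and the libraries of 4 dpi were widely spread.

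From 1 to 6 dpi *Cxcl2* fell by 1.94 (SE 0.47, edgeR adjusted p = 0.011), or 3.84-fold, without overlap. Without replicate 2 of 6 dpi, its lowest library, the difference was -1.53 (adjusted p of 0.05), and without replicate 1 of 1 dpi it was -1.71 (adjusted p of 0.056). The difference between 3 and 2 dpi was 1.44 (SE 0.44) with an edgeR adjusted p of 0.08, and DESeq2 gave 1.45 and an adjusted p of 0.016. In edgeR it passed without replicate 2 of 3 dpi (1.59, adjusted p of 0.043). It did not pass without the 2 macrophage-rich libraries (1.18, adjusted p of 0.23) or with the replicate block (1.31, adjusted p of 0.16). The difference between 6 and 4 dpi was -1.44 (SE 0.46) with an edgeR adjusted p of 0.11 and a DESeq2 adjusted p of 0.039. Between 2 and 1 dpi it was -1.14 (SE 0.46, edgeR adjusted p = 0.55).

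*Cxcl1* encodes the mouse chemokine long known as KC, the attractant most often measured as a sign of inflammation in this species. Its level was 1914, 2049 and 1810 CPM at 1 dpi, 1589, 1814 and 1115 CPM at 2 dpi, and 1690, 507, 2289 and 2349 CPM at 3 dpi. It was 1943, 1770 and 1208 CPM at 4 dpi, 853 CPM at 5 dpi, and 627, 463 and 1027 CPM at 6 dpi. Up to 4 dpi the libraries lay between 1115 and 2349 CPM apart from replicate 2 of 3 dpi, and those of 5 and 6 dpi lay below that range. Between 2 and 1 dpi the difference was -0.35 (95% interval -1.22 to 0.52).

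*Cxcl1* fell by 1.45 from 1 to 6 dpi (SE 0.43, edgeR adjusted p = 0.032), a 2.73-fold difference, and the 6 dpi libraries did not reach the lowest of 1 dpi. The call was lost on leaving out any of 5 libraries: replicates 1, 2 and 3 of 1 dpi and replicates 1 and 2 of 6 dpi, with adjusted p of 0.06 to 0.15. Between 4 and 6 dpi the difference was -1.22 (SE 0.42, edgeR adjusted p = 0.13), again without overlap, and DESeq2 gave an adjusted p of 0.047. In edgeR it passed without replicate 2 of 3 dpi (-1.22, adjusted p of 0.027) and not with the replicate block (-1.27, adjusted p of 0.15). Over the whole time course *Cxcl1* did not pass (edgeR adjusted p = 0.13); it passed, among other settings, without replicate 2 of 3 dpi and in DESeq2. The 95% interval of its difference ran from -0.63 to 1.00 between 3 and 2 dpi and from -0.87 to 0.76 between 4 and 3 dpi.

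All 3 attractants thus fell from 1 to 6 dpi. They were the members called in that comparison, 3 of 7, all lower, where 12.1% of all genes tested were called and 5.21% were lower. DESeq2 and the fit with every gene of at least 1 count kept called 4, with *Cxcl14* added. Only *Cxcl5* was called without replicate 2 of 6 dpi, a library whose mesothelial markers (5 genes) summed to 592 CPM against 79.3 and 65.6 CPM in the others of its day and whose cardiomyocyte sum, 186 CPM, was the highest. Markers of other cells also differed between these days: 5 of 6 tested cardiomyocyte markers (*Tnnt2*, *Actc1*, *Myl2*, *Tnni3* and *Myh6*) were higher at 6 than at 1 dpi, with sums of 82.3 to 186 against 19.1 to 38.9 CPM, and so were 3 of 6 pericyte and smooth muscle markers, with sums of 142 to 173 against 41.0 to 76.8 CPM. Their part in the fall of the attractants was not tested. Across the 17 libraries the log2 levels of *Cxcl2* and *Cxcl5* had a Pearson correlation of 0.87, *Cxcl1* and *Cxcl2* of 0.72, and *Cxcl1* and *Cxcl5* of 0.66; these describe libraries that share days and are not tested.

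**Figure D3:**
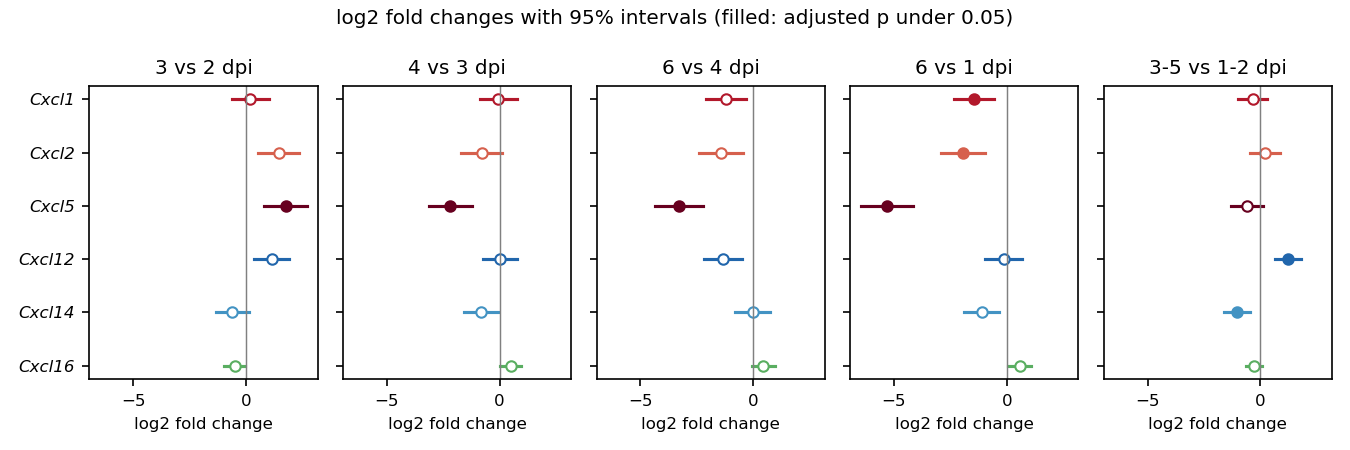
Fitted log2 fold changes (x axis) of 6 CXC chemokines (y axis) in 5 comparisons of days, with the 95% interval as a line. Filled points passed the edgeR test (adjusted p under 0.05): *Cxcl5* in 4 of the 5 panels, *Cxcl1* and *Cxcl2* between 6 and 1 dpi, and *Cxcl12* and *Cxcl14*, in opposite directions, between 3 to 5 dpi and 1 to 2 dpi.

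*Cxcl12*, the stromal ligand of CXCR4, had a course that differed in part from that of the attractants. Its level was 110, 109 and 82.9 CPM at 1 dpi, 100, 114 and 97.4 CPM at 2 dpi, and 247, 112, 248 and 308 CPM at 3 dpi. It was 248, 235 and 211 CPM at 4 dpi, 251 CPM at 5 dpi, and 58.8, 45.4 and 170 CPM at 6 dpi. The level lay between 211 and 308 CPM in 7 of the 8 libraries of 3 to 5 dpi, while replicate 2 of 3 dpi was at the level of the earlier days and replicate 3 of 6 dpi lay above the others of its day. The log2 level of *Cxcl12* had positive correlations over the 17 libraries with *Cxcl1* (0.54), *Cxcl2* (0.59) and *Cxcl5* (0.48), which were not tested.

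The study took the days after 2 dpi and before 6 dpi as the window in which reparative CFs appear. The comparison of this window, 3 to 5 dpi against 1 and 2 dpi, weighs each day equally, so the single 5 dpi library counts as much as the 4 of 3 dpi. In it *Cxcl12* rose by 1.21 (SE 0.28, edgeR adjusted p = 0.0088), or 2.32-fold. The call remained without any 1 library and without the 2 macrophage-rich libraries (1.08, edgeR adjusted p of 0.026). It also remained within the libraries of the Y-linked pattern. Those include none of 4 dpi, so this fit weighs 3 dpi and the single 5 dpi library equally and is another contrast than the full window. The step from 2 to 3 dpi alone was 1.14 (SE 0.37, edgeR adjusted p = 0.098). It passed without replicate 2 of 3 dpi (1.37, adjusted p of 0.024), the library with the lowest macrophage sum of that day; without the 2 macrophage-rich libraries it was 0.80 (adjusted p of 0.35), and with the replicate block 0.90 (adjusted p of 0.26). Of 6 pericyte and smooth muscle markers 3 were higher in the window, beside 5.25% of all genes tested. These were *Rgs5* by 1.89 (edgeR adjusted p = 1.4e-04), *Cspg4* by 2.07 (adjusted p = 2.2e-05) and *Notch3* by 1.08 (adjusted p = 1.6e-04). The sums of the 6 were 41.0 to 76.8 CPM at 1 and 2 dpi, 92.1 to 208 CPM at 3 to 5 dpi and 142 to 173 CPM at 6 dpi, when *Cxcl12* was low again in 2 of 3 libraries, and their part in the *Cxcl12* level was not tested. Between 4 and 3 dpi the difference was 0.02 (95% interval -0.74 to 0.77).

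At 6 dpi *Cxcl12* was below every library of 4 dpi. The difference was -1.34 (SE 0.39, edgeR adjusted p = 0.092), and DESeq2 gave -1.32 and an adjusted p of 0.022. In edgeR it passed without replicate 2 of 3 dpi (-1.34, adjusted p of 0.031) and not with the replicate block (-1.45, adjusted p of 0.095). Without replicate 3 of 6 dpi the difference was -2.15 (adjusted p of 0.0023). Between 6 and 1 dpi it was -0.14 (SE 0.39, 95% interval -0.95 to 0.67, edgeR adjusted p = 0.85), and it was 0.18 without replicate 2 of 6 dpi.

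*Cxcl14* went down where *Cxcl12* went up. Its level was 117, 387 and 316 CPM at 1 dpi, 316, 377 and 349 CPM at 2 dpi, and 217, 276, 188 and 227 CPM at 3 dpi. It was 152, 172 and 57.8 CPM at 4 dpi, 116 CPM at 5 dpi, and 109, 134 and 135 CPM at 6 dpi. The libraries of 2 dpi all exceeded those of 3 dpi, which all exceeded those of 4, 5 and 6 dpi. Replicate 1 of 1 dpi, the library of that day with more *Xist* than Y-linked counts, was at the later level.

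Between 3 to 5 dpi and 1 to 2 dpi *Cxcl14* fell by 1.04 (SE 0.28, edgeR adjusted p = 0.024), or 2.06-fold. The call was lost without the 5 dpi library (-0.86, adjusted p of 0.05) and without replicate 2 or 3 of 1 dpi or replicate 2 of 2 dpi (adjusted p of 0.063, 0.052 and 0.052). It held within the libraries of the Y-linked pattern, where the window is made of 3 dpi and the single 5 dpi library, without 4 dpi. The single steps did not pass: -0.62 (SE 0.35, edgeR adjusted p = 0.37) between 3 and 2 dpi and -0.83 (SE 0.36, edgeR adjusted p = 0.22) between 4 and 3 dpi. Between 6 and 1 dpi the difference was -1.11 (SE 0.38, edgeR adjusted p = 0.059). It passed without replicate 1 of 1 dpi (-1.49, adjusted p of 0.014), in DESeq2 (-1.08, adjusted p of 0.029) and with every gene kept (-1.13, adjusted p of 0.0048). In edgeR it also passed without replicate 2 of 3 dpi (-1.11, adjusted p of 0.038) or replicate 3 of 4 dpi (-1.13, adjusted p of 0.026). With the replicate block it did not pass (-1.06, adjusted p of 0.075).

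In that window 2 of 7 members were called, *Cxcl12* higher and *Cxcl14* lower, against 7.48% of all genes tested (5.25% higher and 2.24% lower). The attractants were not among them: the differences were -0.35 (95% interval -0.98 to 0.28) for *Cxcl1*, 0.19 (-0.48 to 0.87) for *Cxcl2* and -0.58 (-1.29 to 0.12) for *Cxcl5*. For *Cxcl5* the window averages its highest day with the lower levels of 4 and 5 dpi.

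*Cxcl16*, the membrane-bound chemokine, was at 56.2, 71.7 and 45.5 CPM at 1 dpi, 58.7, 67.6 and 63.8 CPM at 2 dpi, and 38.8, 58.8, 38.0 and 42.4 CPM at 3 dpi. It was 65.2, 53.0 and 70.5 CPM at 4 dpi, 42.9 CPM at 5 dpi, and 97.7, 87.2 and 72.3 CPM at 6 dpi. The 6 dpi libraries were the highest of the series, each above every library of the earlier days. Between 3 and 2 dpi the difference was -0.51 (unadjusted p = 0.033, edgeR adjusted p = 0.22) and between 4 and 3 dpi it was 0.50 (unadjusted p = 0.037, edgeR adjusted p = 0.24), and neither passed.

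The difference in *Cxcl16* between 6 and 1 dpi was 0.57 (SE 0.24, 95% interval 0.07 to 1.07), with an edgeR adjusted p of 0.13. Over the time course the edgeR adjusted p was 0.055. It passed, among other settings, in DESeq2, without the 5 dpi library and without replicate 2 of 3 dpi. Its log2 level had negative correlations over the 17 libraries with *Cxcl1* (-0.53), *Cxcl2* (-0.71), *Cxcl5* (-0.69) and *Cxcl12* (-0.66).

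*Cxcl13*, the B cell attractant, was near the limit of counting. It had 0 counts in 9 of 17 libraries and 9 to 19 counts in the other 8, with at least 1 library at 0 on every day. No difference was detectable at this depth (edgeR adjusted p = 0.88 over the time course), and no fold change is given.

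Over the time course 4 of the 7 members passed the edgeR test, *Cxcl5* (adjusted p = 1.9e-05), *Cxcl2* (0.015), *Cxcl12* (0.021) and *Cxcl14* (0.024), where 15.0% of all genes tested did. Only *Cxcl5* and *Cxcl2* passed without replicate 1 of 6 dpi. Between 2 and 1 dpi 0 of 7 passed in edgeR and in DESeq2, against 0.178% of all genes; 2 had an unadjusted p under 0.05, namely *Cxcl5* and *Cxcl2*, both lower. Between 3 and 2 dpi, 4 and 3 dpi, and 6 and 4 dpi 1 of 7 passed each time, *Cxcl5*, against 2.94%, 2.71% and 0.513% of all genes. DESeq2 called 3 members between 3 and 2 dpi (*Cxcl5*, *Cxcl2* and *Cxcl12*) and 4 between 6 and 4 dpi (*Cxcl5*, *Cxcl1*, *Cxcl2* and *Cxcl12*).

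Ordered by mean log2 level, the days ran 3, 1, 2, 4, 5, 6 for *Cxcl5*. Only the steps from 1 to 2 dpi (1.54) and from 5 to 6 dpi (3.29) in that order exceeded the larger SD of the neighbouring days without overlap. For *Cxcl1* the order was 1, 4, 2, 3, 5, 6 and for *Cxcl2* it was 3, 1, 4, 5, 2, 6, with no gap between neighbours beyond their spread. For *Cxcl12* it was 5, 4, 3, 2, 1, 6, where the gap of 1.05 between 3 and 2 dpi exceeded the SD of 0.64 although the ranges overlapped. For *Cxcl14* it was 2, 1, 3, 6, 5, 4, with a gap of 0.84 between 3 and 6 dpi, and for *Cxcl16* it was 6, 2, 4, 1, 3, 5, with a gap of 0.43 between 6 and 2 dpi and one of 0.37 between 1 and 3 dpi that exceeded the SD of 0.33 although the ranges overlapped.

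The chromosome 5 cluster was singled out after its values were seen, and its bounds were set by *Cxcl5*, *Cxcl1* and *Cxcl2*. Of its 7 protein-coding genes, all CXC ligands, 6 were tested and 5 were lower at 6 than at 1 dpi. These include the attractants that set the bounds, so the 5.21% of all genes tested that were lower is no yardstick for this count. The genes that the cluster added were *Cxcl3* and *Pf4*. *Cxcl3*, another CXCR2 ligand, was at 30.1 to 63.7 CPM at 1 dpi and 0.0852 to 3.61 CPM at 6 dpi, and fell by 5.29 (SE 0.82, edgeR adjusted p = 3.7e-04), which held under every alternative run, with differences from -8.08 without replicate 3 of 6 dpi to -4.77. Its 6 dpi libraries held 4, 1 and 47 counts, so the size of this change is uncertain. *Pf4*, best known as platelet factor 4, fell by 1.26 (SE 0.41, edgeR adjusted p = 0.049); this call held under 10 of 25 alternatives. *Ppbp* had at most 37 counts and did not pass, and *Cxcl15* had 0 counts throughout.

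**Figure D4:**
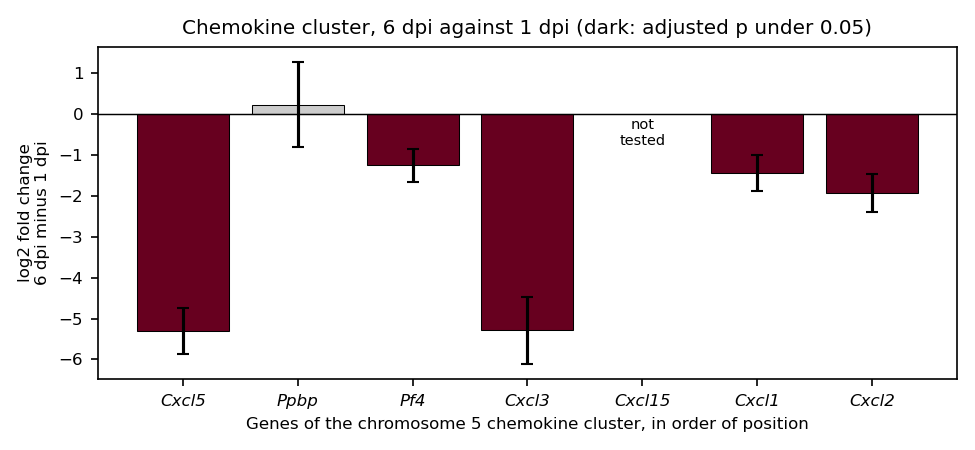
Fitted log2 fold change of 6 dpi minus 1 dpi (y axis) for the 7 genes of the chemokine cluster in order of position (x axis), with bars of 1 standard error. Dark bars passed the edgeR test: *Cxcl5* at -5.31, *Cxcl3* at -5.29 (1 to 47 counts at 6 dpi), and *Cxcl1*, *Cxcl2* and *Pf4* between -1.94 and -1.26; *Ppbp*, in grey, did not pass and *Cxcl15* was not tested.

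Of the 8 other CXC ligands listed, 5 were tested. *Cxcl9*, an interferon-induced ligand of CXCR3, was at most 0.247 CPM at 1 dpi, 0.159 to 1.21 CPM at 2 dpi and 0.818 to 7.33 CPM at 3 to 5 dpi, and passed as higher in both the 3 to 5 dpi window (edgeR adjusted p = 0.003) and at 6 dpi against 1 dpi (adjusted p = 0.011). Its 1 dpi libraries held next to no counts, so no fold is given. *Cxcl10*, a further CXCR3 ligand, rose by 1.17 in the window (SE 0.29, edgeR adjusted p = 0.015), from 27.1 to 50.1 CPM before it to 41.6 to 150 CPM in it. This call was lost without replicate 3 of 1 dpi and within the libraries of the Y-linked pattern, which include none of 4 dpi. At 6 dpi *Cxcl10* was at 26.5 to 39.7 CPM, below every library of 4 dpi (-1.54, edgeR adjusted p = 0.076), and differed from 1 dpi by -0.16 (adjusted p = 0.83). In the window the list's median was -0.36, beside 0 over all genes tested, and between 6 and 1 dpi it was -0.16 beside 0.03.

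Of 9 receptors listed 4 were tested. *Cxcr2*, the receptor of CXCL1, CXCL2 and CXCL5, was at most 1.81 CPM, and *Cxcr1*, *Cxcr3*, *Cxcr5* and *Cxcr6* had at most 6 counts in any library. *Ackr1*, an atypical receptor that binds CXCL1 and CXCL5, had 20 to 105 counts a library, at most 8.97 CPM, and did not pass in any comparison. *Cxcr4*, the signalling receptor of CXCL12, was at most 1.94 CPM and passed as higher at 6 than at 1 dpi (edgeR adjusted p = 0.036), a call that held under 17 of 23 alternatives and rests on at most 30 counts. *Ackr3*, which takes up CXCL12, was at 132 to 300 CPM at 1 dpi, 229 to 257 CPM at 2 dpi, 30.3 to 352 CPM at 3 dpi and 141 to 189 CPM at 6 dpi, and did not pass in any comparison. *Ackr4*, an atypical receptor of CC chemokines that was listed with them, changed over the time course (edgeR adjusted p = 0.0088), from 4.18 to 13.6 CPM at 1 dpi to 31.8 to 63.5 CPM at 3 dpi.

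Among 18 inducers of these chemokines and their receptors, 16 were tested and 2 were lower at 6 than at 1 dpi, with a median of -0.68 beside 0.03 over all genes, of which 5.21% were lower. *Cebpb*, a transcription factor that acts with NF-kB on inflammatory promoters, fell by 1.16 (SE 0.25, edgeR adjusted p = 0.0052) under every alternative run, and *Il17ra*, a subunit of the interleukin-17 receptor, fell by 1.15 (SE 0.37, edgeR adjusted p = 0.047), which held under 10 of 25. *Il1r1*, the interleukin-1 receptor, was at 67.2 to 78.6 CPM at 1 dpi and 33.8 to 59.0 CPM at 6 dpi and did not pass. *Tnfrsf1a*, the tumour necrosis factor receptor, was at 265 to 295 CPM and 157 to 205 CPM on these days and did not pass either. Of the inducers themselves, *Il6* was at 72.7 to 245 CPM at 1 dpi and 10.5 to 81.8 CPM at 6 dpi. *Il33* was at 40.8 to 49.1 CPM and 16.1 to 35.8 CPM on these days. *Il1b* reached 8.74 CPM at 1 dpi, 21.5 CPM at 3 dpi and 0.922 CPM at 6 dpi, and *Tnf* reached 2.78 CPM at 4 dpi. None of these inducers passed in any edgeR comparison, and *Il1a* and *Il17a* had 0 counts throughout. In the 3 to 5 dpi window 1 of the 16, *Tlr4*, was lower (-0.67, SE 0.20, edgeR adjusted p = 0.047), a call that held under 9 of 27 alternatives. Over all genes tested 2.24% were lower in the window.

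All 12 genes of the NF-kB list were tested. Between 6 and 1 dpi 3 were lower: *Nfkbiz*, a co-activator of NF-kB targets, by 1.14 (edgeR adjusted p = 0.029), *Bcl3*, a nuclear partner of p50, by 1.05 (adjusted p = 0.018), and *Irak3*, an inhibitor of Toll-like receptor signalling, by 1.40 (adjusted p = 0.003). The list's median was -0.31 beside 0.03 over all genes, of which 5.21% were lower. Over 25 alternatives the *Nfkbiz* call held under 21 and was lost without replicate 1 or 3 of 1 dpi or replicate 1 or 2 of 6 dpi, and the *Bcl3* call held under 22 and was lost without replicate 2 of 1 dpi or replicate 1 or 2 of 6 dpi. *Irak3* also fell at 3 dpi, by 1.28 against 2 dpi (SE 0.25, edgeR adjusted p = 0.0093), to between 10.5 and 12.6 CPM, in the comparison in which *Cxcl5* rose; this call was lost with the replicate block, without replicate 2 of 2 dpi and without the 2 macrophage-rich libraries. *Nfkb1*, which encodes p105 and p50, was at 101 to 132 CPM at 3 dpi and 51.3 to 62.1 CPM at 4 dpi, and fell by 1.02 (SE 0.21, edgeR adjusted p = 0.011) in the comparison in which *Cxcl5* fell. It was lost without replicate 1 or 2 of 4 dpi and with only the days compared.

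Of 8 genes that set the decay of chemokine transcripts, all tested, 1 changed over the time course, beside 15.0% of all genes tested. It was *Traf3ip2*, the adaptor of the interleukin-17 receptor (edgeR adjusted p = 0.027), at 19.4 to 22.3 CPM at 1 dpi and 9.68 to 14.7 CPM at 6 dpi. None of the 8 passed between single days in edgeR. Of 7 proteases that cut chemokines 6 were tested. *Mmp2*, which cuts CXCL12 at its amino terminus, rose by 0.93 from 1 to 6 dpi (SE 0.27, edgeR adjusted p = 0.03), which held under 21 of 25 alternatives, and *Mmp14* rose by 0.67 in the 3 to 5 dpi window (SE 0.20, edgeR adjusted p = 0.047), which held under 11 of 27 alternatives. *Dpp4* and *Adam10*, which cut CXCL12 and shed CXCL16, did not pass.

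Digestion of tissue induces immediate early and heat shock genes, so 15 of these were read beside the chemokines. Between 6 and 1 dpi 2 were lower, both heat shock genes: *Hspa1a* by 1.66 (SE 0.45, edgeR adjusted p = 0.022) and *Hspa1b* by 2.15 (SE 0.55, edgeR adjusted p = 0.016), with a list median of -0.06 beside 0.03 over all genes, of which 5.21% were lower. *Fos*, the main immediate early gene, was at 1307 to 1982 CPM at 1 dpi and 1372 to 1920 CPM at 6 dpi. At 3 dpi, where *Cxcl2* and *Cxcl5* were also high, *Fos* reached 2486 to 2756 CPM and *Nr4a1* 397 to 456 CPM, above every library of 2 and 4 dpi. Neither gene passed in edgeR between 3 and 2 dpi, where the list median was 0.08 beside 0.04 over all genes. Over the time course 3 of the 15 passed, beside 15.0% of all genes tested. These were *Nr4a1* (edgeR adjusted p = 0.048), *Hspa1a* (0.044) and *Hspa1b* (0.039). The part of the digestion in the chemokine levels was not tested.

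The genes most like each member over the 17 libraries, among 8919 genes with a mean of at least 100 counts, were named as a description only, since libraries share days and depth. They were *Tmed5* (Pearson r of 0.93), *Zfp207* (0.92) and *Ier5* (0.91) for *Cxcl1*, and *Slc25a5* (0.93), *Ifrd1* (0.92) and *Psmd12* (0.91) for *Cxcl2*. For *Cxcl5* they were *Ddx39*, *C1qbp* and *Slc25a5* (0.95 each), so that *Slc25a5*, a mitochondrial ADP/ATP carrier, was shared by *Cxcl2* and *Cxcl5*. For *Cxcl12* they were *Slit2* (0.93), *Fkbp14* (0.92) and *Gm10184* (0.92). *Cxcl14* had lower values, with *Spon1* (0.84), *Mtcl1* (0.83) and *Tnfaip2* (0.80), and *Cxcl16* had *Rfng* (0.92), *Mapre3* (0.90) and *Cc2d1b* (0.90).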

How the data were processed

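Bulk RNA was profiled by MARS-seq, in which poly-A RNA is primed at its 3′ end and linearly amplified, in 17 libraries of sorted CFs. The authors demultiplexed reads with bcl2fastq (1.2.4, per the submitters' notes), aligned them to mm10 with STAR, and deposited raw counts per gene from featureCounts on an Ensembl annotation; collapsing of amplification duplicates by molecular identifiers is not given in the sources used here. Counting at the 3′ end leaves levels without a gene length term. Levels were compared between days and not between genes. Members and lists were chosen with earlier results of these data known.

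The filter kept the 14030 genes that reached 10 counts in 3 or more libraries. A model with 1 term for each of 6 days was fitted to all 17 libraries with the quasi-likelihood F-test of edgeR (4.0.16; R 4.3.3) and TMM normalization, and the threshold was an adjusted p (Benjamini-Hochberg, all genes) of 0.05. The 5 dpi library has no replicate, and its spread was taken to be that of the other days. Levels are CPM on TMM library sizes; log2 levels for ranking and likeness used a prior count of 2. The text names every member, up to 4 called genes of each pathway list by mean level plus receptors and inducers of the members, and the 3 genes most alike. The 5 dpi library carries different replicate numbers in its title and its description, and the title was used. On simulated counts for the 3 to 5 against 1 to 2 dpi comparison (14030 genes, 200 changed), 31% of genes changed by 1 on the log2 scale and 81% of those changed by 2 were called, with 7 false among 119 calls.

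Replicates of a day differed by more than counting noise (chi-square per degree of freedom of 21.83 to 212.55 over 18 pairs). Alternatives were DESeq2 (1.42.0), other normalizations and filters, a robust spread, the replicate number as a block, only the days compared, only libraries in which Y-linked counts exceeded *Xist*, no 5 dpi library, and each other library left out. Gene positions are from GENCODE vM21 (GRCm38).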

Additional observations from a re-analysis of the deposited data

How the results depend on the processing

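With each of 16 libraries left out in turn, the number of members called ranged from 2 to 6 over the time course, 0 to 0 between 2 and 1 dpi, 0 to 3 between 3 and 2 dpi, 0 to 1 between 4 and 3 dpi, 0 to 4 between 6 and 4 dpi, 1 to 4 between 6 and 1 dpi and 1 to 2 between 3 to 5 and 1 to 2 dpi. Counts moved by over 1.5 times as follows, and the cause was not tested. Between 2 and 1 dpi 2 members were called with every gene of at least 1 count kept and with only the days compared. Between 3 and 2 dpi 3 were called by DESeq2 and with every gene kept, 2 with only the days compared and with the Y-linked pattern, and 0 with the replicate block or without the 2 macrophage-rich libraries, which also left 0 between 4 and 3 dpi. Between 6 and 4 dpi DESeq2 and every gene kept gave 4, and without the 5 dpi library the 3 to 5 dpi window gave 1. Smaller moves were from 3 to 4 between 6 and 1 dpi (DESeq2, every gene kept) and, over the time course, from 4 to 6 (DESeq2) or 5 (upper-quartile normalization, every gene kept, 10 counts in every library, no 5 dpi library). The replicate block changed no other member count. The mean correlation of deviations was 0.011 over 30 same-number pairs and -0.005 over 72 others, with 8 of 16 libraries closest to their own number. Same-number pairs ranged from -0.108 to 0.2, so this check cannot exclude that libraries of 1 number shared some handling. Over all genes DESeq2 called 104, 1042, 879, 807, 2427 and 1555 in the order 2 against 1, 3 against 2, 4 against 3, 6 against 4, 6 against 1 and the window, where edgeR called 25, 412, 380, 72, 1700 and 1050; every gene kept gave 153, 980, 866, 882, 2194 and 1486, the replicate block 21, 174, 243, 28, 1509 and 885, and only the days compared 63, 252, 125, 14, 1536 and 1069. Over the time course edgeR called 2099, DESeq2 3757 and every gene kept 3729. Requiring 10 counts in every library gave 10 for 2 against 1 dpi and 140 for 6 against 4 dpi. With a library left out these counts ranged from 13 to 32 for 2 against 1, 46 to 734 for 3 against 2, 126 to 722 for 4 against 3, 3 to 1402 for 6 against 4, 763 to 2577 for 6 against 1, 780 to 1601 for the window and 1307 to 3466 over the time course. Fold changes that changed sign were all uncalled: *Cxcl14* between 2 and 1 dpi (-0.02 with the Y-linked pattern; -0.02 to 0.68 with a library left out), *Cxcl1* between 3 and 2 dpi (-0.11 with the block, -0.45 without the macrophage-rich libraries, -0.03 to 0.49) and between 4 and 3 dpi (0.22, 0.56, and -0.36 to 0.13 in the same order), *Cxcl12* between 4 and 3 dpi (-0.01 with every gene kept, -0.21 to 0.20 with a library left out) and *Cxcl14* between 6 and 4 dpi (0.02 by DESeq2 size factors, DESeq2, 10 counts in every library and the block, 0.01 by upper-quartile normalization, -0.34 to 0.26 with a library left out). With a library left out, *Cxcl12* ranged from -0.08 to 0.11 and *Cxcl16* from -0.02 to 0.32 between 2 and 1 dpi, and *Cxcl12* from -0.95 to 0.18 between 6 and 1 dpi. Of the members' recomputed fold changes 848 kept direction and side of the threshold, 32 gained the call, 29 lost it and 27 changed sign. Days of the highest mean level were the same on all 3 scales tried.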
